A study of Homo sapiens with 10 samples.

Results

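HSF1 peaks were examined at the starts of 5 genes of the DNAJ (HSP40) co-chaperone family, DNAJB1, DNAJB6, DNAJA1, DNAJA2 and DNAJA4, in HCT116, a human cell line established from a colon cancer. A gene was scored as having a peak where a listed peak overlapped the 5 kb on either side of its hg19 start by at least 1 bp. Of the 5 genes, 4 had a peak in at least 1 of 6 HSF1 peak lists, and these lists together held 6597 regions once overlapping peaks were joined. The lists came from chromatin immunoprecipitation and sequencing (ChIP-seq) with 5 µg of an antibody to human HSF1. The cells were WT or FBXW7 KO, where FBXW7 is the substrate-recognition subunit of a ubiquitin ligase, and were left without treatment or kept at 42 °C for 1 h as heat shock. There were 2 heat shock libraries and 1 untreated library of each line. The labels name neither a clone for the KO line nor separate cultures for the replicates, so the spread between replicates may be technical. A peak list holds no reading of FBXW7 or of cell type markers, so neither the deletion nor the cell line was checked.

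J-domain proteins of this family bring unfolded clients to HSP70 and stimulate its ATPase through the J domain. Class A members (DNAJA1, DNAJA2, DNAJA4) carry a zinc-binding region besides the J domain, while class B members (DNAJB1, DNAJB6) lack this region. HSF1 is the main transcription factor of the heat shock response and binds, as a trimer, to heat shock elements made of inverted GAA units. DNAJB1 is a well-known heat-inducible gene, and with HSP70 its product also restrains HSF1.

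The promoter sequences are shown because the 5 genes differ in their heat shock elements. They come from RefSeq (GRCh38.p14), which is not the build of the peaks, and each line gives the 200 bases before a RefSeq start, 5′ to 3′ along the gene. Capitals mark GAA and TTC units that alternate with 2 bases between them, spelled GAANNTTC or TTCNNGAA for 2 units and GAANNTTCNNGAA or TTCNNGAANNTTC for 3 units. Each 3-unit match thus contains 2 overlapping 2-unit matches, and both strands were searched. The RefSeq starts of DNAJB1 and DNAJA4 are numbered 1 to 3 along the gene, and the numbered start shown is the one with 2 matches before it. Positions on GRCh38.p14 are chr19:14518398-14518597, minus strand, for DNAJB1, chr7:157336804-157337003, plus strand, for DNAJB6, chr9:33025073-33025272, plus strand, for DNAJA1, chr16:46973675-46973874, minus strand, for DNAJA2 and chr15:78264362-78264561, plus strand, for DNAJA4.
DNAJB1, start 2: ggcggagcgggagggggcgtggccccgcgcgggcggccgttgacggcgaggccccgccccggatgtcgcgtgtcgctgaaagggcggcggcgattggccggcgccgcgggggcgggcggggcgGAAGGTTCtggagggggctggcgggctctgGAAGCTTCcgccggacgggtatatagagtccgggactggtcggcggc
DNAJB6: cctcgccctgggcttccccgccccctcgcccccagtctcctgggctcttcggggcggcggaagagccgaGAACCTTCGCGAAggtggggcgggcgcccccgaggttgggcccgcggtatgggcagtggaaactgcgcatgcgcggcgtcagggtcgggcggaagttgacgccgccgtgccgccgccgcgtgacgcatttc
DNAJA1: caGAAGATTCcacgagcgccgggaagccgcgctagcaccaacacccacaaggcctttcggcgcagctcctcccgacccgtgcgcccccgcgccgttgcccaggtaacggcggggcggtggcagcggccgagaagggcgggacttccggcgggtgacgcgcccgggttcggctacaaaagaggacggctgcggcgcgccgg
DNAJA2: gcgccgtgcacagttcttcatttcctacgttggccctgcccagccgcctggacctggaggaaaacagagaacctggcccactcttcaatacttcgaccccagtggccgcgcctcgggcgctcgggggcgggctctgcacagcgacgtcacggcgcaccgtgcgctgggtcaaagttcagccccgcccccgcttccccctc
DNAJA4, start 2: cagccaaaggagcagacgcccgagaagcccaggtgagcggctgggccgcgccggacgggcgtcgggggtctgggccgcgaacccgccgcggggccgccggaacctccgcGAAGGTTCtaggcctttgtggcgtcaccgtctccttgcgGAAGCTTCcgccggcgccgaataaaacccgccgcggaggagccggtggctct

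In 2 windows a match lay just after the start, shown here as the 10 bases before to 20 bases after it (chr9:33025263-33025292, plus strand, for DNAJA1 and chr19:14517918-14517947, minus strand, for start 3 of DNAJB1).
DNAJA1: ggcgcgccgggcgGAACTTTCCAGAAcgct
DNAJB1, start 3: ccgctcggccaGAAGCTTCtagcatgtctg

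Within the RefSeq windows of 250 bases before to 50 after a start, the 4 genes with HSF1 peaks each held at least 1 element, and DNAJA2, which had no peak, held none. DNAJB6 had a 3-unit element from 131 to 119 bases before its start. DNAJA1 had one at bases 4 to 16 after its start and a separate 2-unit element 198 to 191 bases before it. The 2-unit elements of DNAJB1 lay 77 to 70 and 47 to 40 bases before start 2, and those of DNAJA4 91 to 84 and 52 to 45 bases before its own start 2. The DNAJB1 and DNAJA4 windows shared the 8-base matches GAAGGTTC and GAAGCTTC in the same order. By gene, 4 of the 5 had a 2-unit element and 2 of the 5 a 3-unit element in any window, against 16.2% and 0.608% of the 27305 RefSeq genes. Counted by window, 5 of the 9 DNAJ windows had a 2-unit and 2 a 3-unit element, against 13.5% and 0.49% of all 35116 windows. The other protein-coding DNAJ genes of the table (DNAJA3 and all DNAJB and DNAJC genes) numbered 36, and 4 of them, DNAJB4, DNAJB7, DNAJC6 and DNAJC15, had a 2-unit element, while 0 had a 3-unit element. Of 15 partner genes, HSP70 and HSP90 chaperones, their cofactors and the mitochondrial chaperonin pair, 13 had a promoter in the table (ST13 and STUB1 did not). Of these 13, 7 had a 2-unit element and 4, HSP90AA1, HSP90AB1, HSPA8 and HSPD1, a 3-unit element. A match describes letters in a window and was not tested as a binding site.

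**Figure D1:**
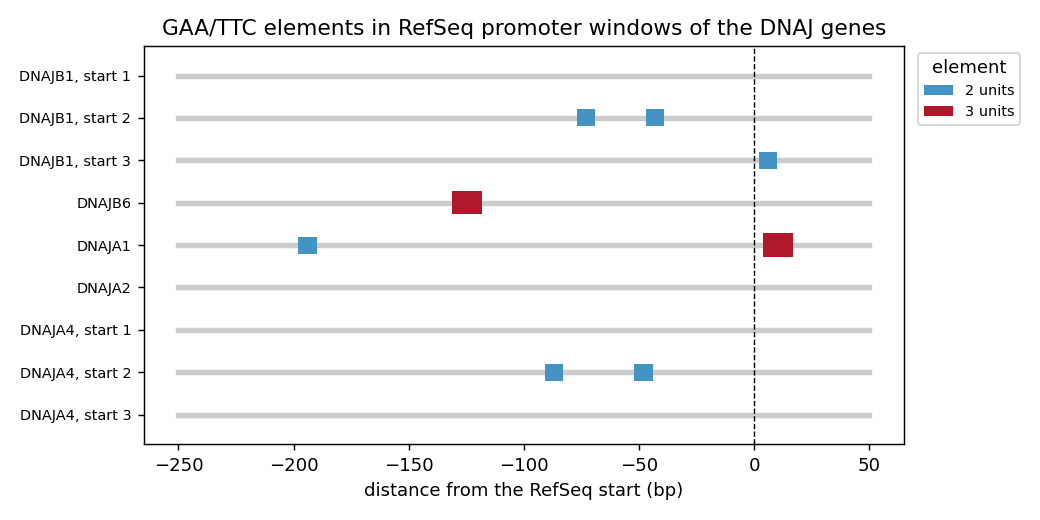
Position of alternating GAA and TTC elements in the RefSeq promoter windows (grey lines, 250 bases before to 50 after each start) of the 5 DNAJ genes, against distance from the start in bp; blue marks 2 units and red 3 units. The 3-unit elements are in DNAJB6 (131 to 119 bases before) and DNAJA1 (bases 4 to 16 after), and the DNAJA2 line is empty.

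Each KO list had a peak at 4 of the 5 DNAJ genes and each WT list at 1 of the 5. All 3 WT peaks were at DNAJA1, the one member with a peak in all 6 lists, while DNAJB1, DNAJB6 and DNAJA4 had peaks in all 3 KO lists and in no WT list. As a background, 0.905%, 0.501% and 1.05% of all 10 kb windows of the genome held a peak in untreated KO and KO heat shock replicates 1 and 2. The corresponding WT shares were 0.0291%, 0.086% and 0.0481%. These windows are not limited to gene starts. Every peak counted at a DNAJ gene was centred within 493.5 bp of its start. Read depth is unknown for all 6 libraries, and the lists differed in length, with 2866, 1566 and 3257 peaks in KO (untreated, then heat shock replicates 1 and 2) and 79, 225 and 131 in WT. The lists also differed in peak width. The narrowest peak was 63, 59 and 60 bp in the KO lists and 714, 679 and 561 bp in the WT lists, in the same order. Every KO peak at DNAJB1, DNAJB6 and DNAJA4, at most 470 bp wide, was thus narrower than any peak of a WT list. Whether the lists of KO and WT were called with the same settings is not stated. A gene without a listed peak did not reach the caller's threshold there, and HSF1 may still have been bound.

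DNAJB1 (start chr19:14629200, minus strand), the class B partner of HSP70 in refolding and disaggregation, had 2 peaks in untreated KO, with centres 552 bp apart, 2 in KO heat shock replicate 2, with centres 482 bp apart, and 1 in KO heat shock replicate 1. One peak of each pair covered the start, with scores of 266 in untreated KO (chr19:14629117-14629400, rank 162) and 84.5 in KO heat shock replicate 2 (chr19:14629119-14629332, rank 634). The other lay inside the gene, with scores of 70.2 in untreated KO (chr19:14628616-14628797, rank 850) and 223 in KO heat shock replicate 2 (chr19:14628563-14628924, rank 206). The single peak of KO heat shock replicate 1 scored 92.3 (chr19:14628805-14628973, rank 238). It lay between the untreated KO peaks, overlapped neither of them, and overlapped the inner peak of replicate 2. In replicate 2 the inner peak scored 3.18-fold and the start peak 0.317-fold the untreated value, a contrast that rests on 1 library of each condition. In untreated KO the start peak scored 3.79-fold over the inner one, and in KO heat shock replicate 2 the inner one scored 2.64-fold over the start peak. Centres of the peaks inside the gene lay 493.5, 311 and 456.5 bp from the start in untreated KO and KO heat shock replicates 1 and 2. In RefSeq, start 3 of DNAJB1 lies 460 bp after start 2 on GRCh38.p14, and its window held the 2-unit element printed above at bases 2 to 9 after that start. Which RefSeq start each peak belongs to was not resolved, since the builds differ.

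DNAJB6 (start chr7:157129700, plus strand), the class B member known for suppressing the aggregation of polyglutamine proteins, had 1 peak in each KO list, covering its start each time. Scores were 397 in untreated KO (chr7:157129309-157129739), 169 in KO heat shock replicate 1 (chr7:157129454-157129748) and 362 in replicate 2 (chr7:157129357-157129756), at ranks 103, 122 and 119. Centres lay 176, 99 and 143.5 bp upstream of the start, and 286 bp were common to the 3 peaks. The upstream side is also where the RefSeq window of DNAJB6 held its 3-unit element, but the builds differ and no peak was assigned to an element.

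DNAJA1 (start chr9:33025200, plus strand), an abundant farnesylated class A co-chaperone of the cytosol, had the highest-ranked peak of the 5 genes in each KO list and the only one in each WT list. In KO its scores were 1143 untreated (chr9:33024874-33025599) and 551 and 845 in heat shock replicates 1 and 2 (chr9:33024878-33025416 and chr9:33024875-33025672), at ranks 20, 24 and 43. In WT they were 104 untreated (chr9:33023946-33025956) and 111 and 124 in heat shock replicates 1 and 2 (chr9:33024391-33025733 and chr9:33024356-33025861), at ranks 23, 39 and 19. The KO and WT scores did not overlap. The highest score of any peak was 3100, 2700 and 3188 in the KO lists and 663, 872 and 892 in the WT lists. Whether other regions called in all 6 lists show the same was not counted. Scores depend on the unknown depth, and those of DNAJA1 were not tested across libraries. All 6 peaks covered the start and shared 539 bp, the whole of the narrowest peak. The KO peaks were 726, 539 and 798 bp wide and the WT peaks 2011, 1343 and 1506 bp, each untreated first, so that each WT peak was wider than each KO peak. The median width over all peaks was 173, 155 and 181 bp in the KO lists and 1656, 1468 and 1443 bp in the WT lists. The KO peaks of DNAJA1 were 3.48 to 4.41 times the median width of their list, while its WT peaks were 0.915 to 1.21 times theirs. DNAJA1 was thus wide for a KO list and ordinary for a WT list.

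Among the 37 regions called in every one of the 6 lists (0.561% of the joined regions), DNAJA1 took place 16, 17 and 28 by rank in untreated KO and KO heat shock replicates 1 and 2. Its places were 20, 27 and 17 in untreated WT and WT heat shock replicates 1 and 2. It was thus near the middle of that set in 4 lists and lower in KO heat shock replicate 2 and WT heat shock replicate 1. The regions closest to it in ranks over the 6 lists were chr19:5863711-5866089 and chr17:74454783-74457568, with mean absolute differences of 0.29 and 0.36 on the log2 scale of rank.

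DNAJA4 (start chr15:78556500, plus strand), a class A member, had 1 peak in each KO list, and all 3 lay downstream of its start without covering it. Scores were 552 in untreated KO (chr15:78556534-78557003) and 315 and 317 in KO heat shock replicates 1 and 2 (chr15:78556624-78556958 and chr15:78556545-78556984), at ranks 71, 59 and 140. Centres lay 268.5, 291 and 264.5 bp into the gene, the tightest placement of the KO peaks of any gene, spanning 26.5 bp against 77 bp for DNAJB6 and 126.5 bp for DNAJA1. RefSeq lists start 2 of DNAJA4 417 bp after its start 1, and only the window of start 2 held elements. As for DNAJB1, peaks were not assigned to a RefSeq start.

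DNAJA2 (start chr16:47007600, minus strand), a class A co-chaperone close to DNAJA1 in domain layout, had no peak within 5 kb in any of the 6 lists. The nearest peaks were a 188 bp peak in KO heat shock replicate 2 (score 84.5, centre 25653.5 bp away) and a 149 bp peak in KO heat shock replicate 1 (score 57.4, centre 44799 bp away). Neither was found in a second list.

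**Figure D2:**
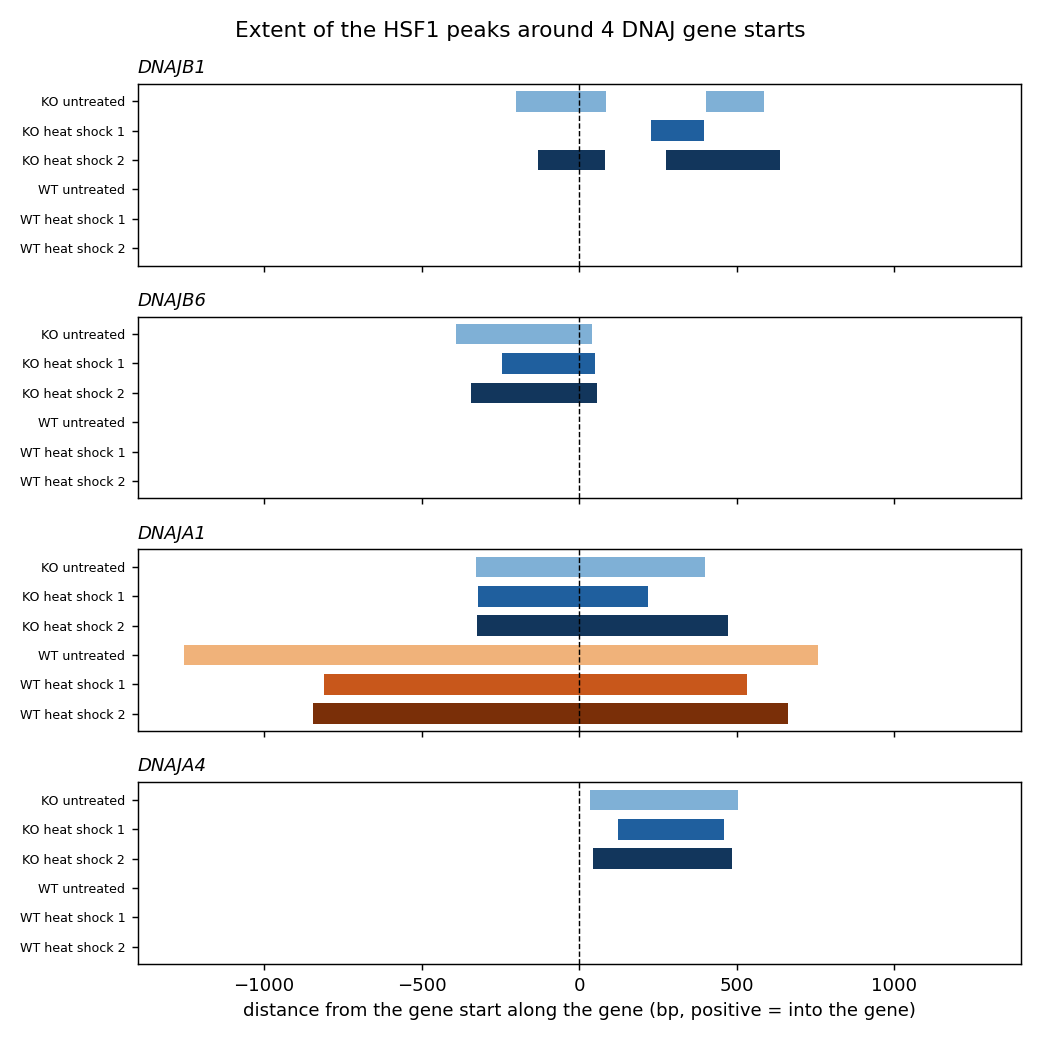
Extent of every peak within 5 kb of the starts of the 4 DNAJ genes that had one, as distance from the start along the gene in bp; each bar is 1 peak of the named library. DNAJB1 shows 2 peaks in untreated KO and KO heat shock replicate 2 and 1 in replicate 1, the DNAJB6 peaks reach upstream, the DNAJA4 peaks lie wholly inside the gene, and the 3 WT bars at DNAJA1 (1343 to 2011 bp) are wider than the KO bars (539 to 798 bp).

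**Figure D3:**
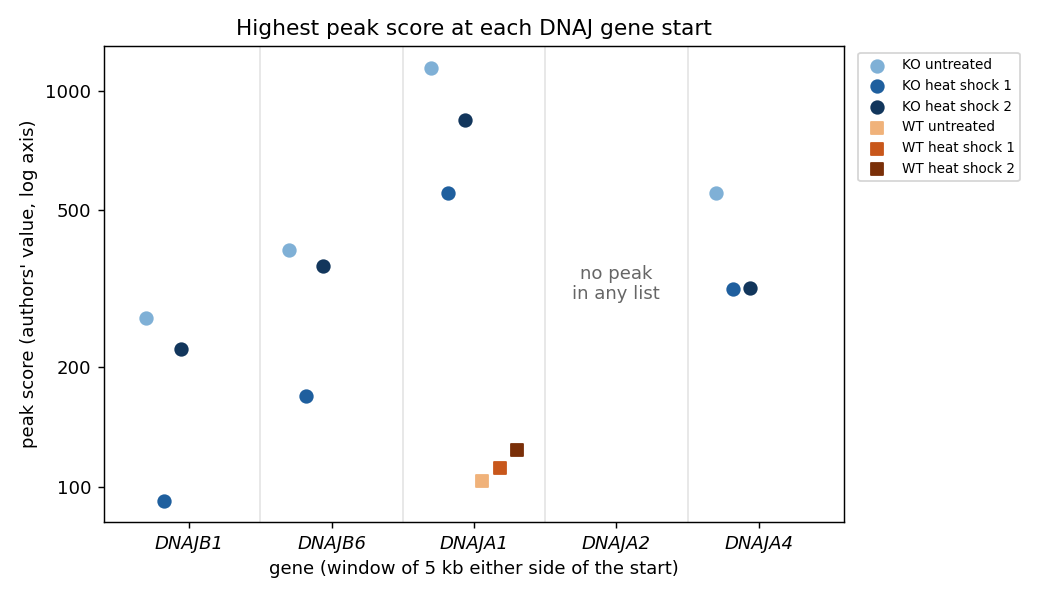
Score of the highest peak at each DNAJ gene in each library (log axis, authors' score without a unit); circles are KO and squares WT. The untreated KO circle is the highest of the KO circles at each of the 4 genes, and WT squares are present at DNAJA1 alone, between 104 and 124.

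After heat shock, KO lists had peaks at 4 and 4 DNAJ genes and WT lists at 1 and 1, a difference of 3 genes (n = 2 libraries each, SD 0 in both; exact permutation test over libraries, two-sided, p = 0.333, the smallest that 2 against 2 can give). Of the 355 joined regions with a peak in all 3 KO lists, 65.9% had no WT peak and 10.4% had a peak in all 3 WT lists, as DNAJA1 did, so that a KO peak without a WT peak at 3 of the 4 genes is near the share of all such regions. When each list was cut to its 79 highest-scoring peaks, the difference fell to 0.5 genes, since only DNAJA1 and, in KO heat shock replicate 1, DNAJA4 remained. The line cannot be told apart from the length of its lists or from the width of their peaks. The rank percent of DNAJA1, its rank as a share of list length, was 1.53 and 1.32% in the KO heat shock lists and 17.3 and 14.5% in the WT ones, a difference of −14.5 percentage points (exact permutation test, two-sided, p = 0.333). Its ranks themselves were 24 and 43 in KO and 39 and 19 in WT and overlapped, so the direction of the difference in rank percent comes with the lengths of the lists. Its mean log2 width was 10.47 ± 0.12 in WT and 9.36 ± 0.40 in KO heat shock libraries (SD, n = 2 each), a difference of 1.12 or 2.17-fold (exact permutation test, two-sided, p = 0.333). Both differences rest on DNAJA1 alone, the one gene called in all 4 heat shock lists. The median width over all peaks was 1468 and 1443 bp in the WT heat shock lists and 155 and 181 bp in the KO ones. The direction of the width difference at DNAJA1 was thus that of the lists as a whole.

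The highest KO peak of each gene was set beside the 40 other peaks of that list nearest to it in rank. The share of these 40 that overlapped a WT peak of the same condition was counted. A heat shock KO peak could match either WT heat shock list (225 and 131 peaks), and an untreated KO peak only the untreated WT list (79 peaks). Shares of untreated and heat shock lists are therefore not directly comparable. Around DNAJA1, 75%, 90% and 75% were found in WT (untreated, then heat shock replicates 1 and 2). Around DNAJA4 the shares were 25%, 60% and 22.5%, around DNAJB6 12.5%, 27.5% and 27.5%, and around DNAJB1 5%, 12.5% and 12.5%. At the ranks of DNAJA1 a WT peak was thus the common outcome. At those of DNAJA4, DNAJB6 and DNAJB1 a missing WT peak was, except for DNAJA4 in KO heat shock replicate 1. Among the 234 regions found in every KO list and no WT list (3.55% of all regions), DNAJB6 was number 20 and DNAJA4 number 22 by median rank percent (3.65 and 3.77%, against 9.89% for the middle region). The region inside DNAJB1, joined across the KO lists through the peak of heat shock replicate 2, was number 173 (15.2%).

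**Figure D4:**
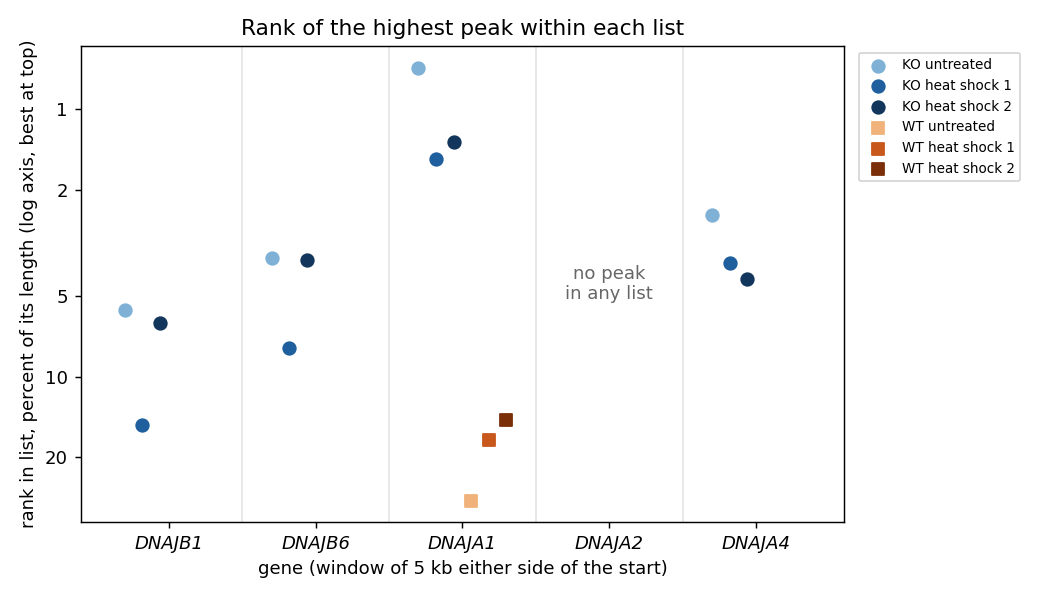
Rank of the highest peak at each DNAJ gene as a percent of the length of its list (log axis, best rank at the top); circles are KO and squares WT. DNAJA1 lies at 0.698 to 1.53% in KO and 14.5 to 29.1% in WT, and DNAJA4, DNAJB6 and DNAJB1 lie between 2.48 and 15.2% in KO.

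Without heat shock, KO already had peaks at the same 4 DNAJ genes as after heat shock, and WT at DNAJA1. The difference between the untreated lists was 3 genes, with 1 library each and no test.

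Heat shock added no DNAJ gene in either line: the difference in the number of genes was 0 in WT and 0 in KO, with 1 untreated library each and no test. In KO, the highest score at each of the 4 genes was lower in each heat shock library than in the untreated one (8 of 8 values). In heat shock replicate 1 the ratios to untreated were 0.347 for DNAJB1, 0.427 for DNAJB6, 0.482 for DNAJA1 and 0.57 for DNAJA4. Over the 387 joined regions called in both of these lists the median ratio was 0.538, and 82.9% scored lower after heat shock, so the ratios of the 4 genes lay on either side of that of all shared regions. In replicate 2 the ratios were 0.838 for DNAJB1, 0.911 for DNAJB6, 0.739 for DNAJA1 and 0.575 for DNAJA4, against a median of 1 over 609 regions, of which 49.4% scored lower. For DNAJB1 this compares the highest peak of each list, which are not at one position, as described above. The highest was the start peak in untreated KO and a peak inside the gene in both heat shock libraries. By position the direction differed in replicate 2, where the inner peak scored 3.18-fold and the start peak 0.317-fold the untreated one. The replicate 1 peak scored 1.31-fold the untreated inner peak but did not overlap it, so this is not a ratio at one position. In WT, DNAJA1 scored 1.08-fold and 1.2-fold the untreated value in heat shock replicates 1 and 2, against medians of 1.36 over 49 regions and 1.08 over 44, of which 28.6% and 43.2% scored lower. With 1 untreated library per line, none of these ratios has a replicate check of its denominator.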

How the data were processed

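The deposited files are 6 lists of HSF1 peaks with 5 columns (chromosome, start, end, peak name and score), each called on a single library with the matching input as control, per the file labels. The submitters' processing notes list CASAVA, Bowtie 0.12.7, MACS 1.4.2 and hg19 but give no settings. The score is the authors' deposited value per peak; its scale is not stated, and the lowest was 50 to 50.44 in each list. The 4 input libraries were not used here. Groups and replicate numbers came from the titles. Gene starts were given to the nearest 100 bp, and the 5 genes and all lists were chosen with earlier results of these data known. All members were named, together with the 2 regions nearest in rank and the nearest outside peaks. Where a window held several peaks, the highest-scoring one was used for scores, ranks and widths. Ties shared the lowest rank. The like-rank comparison and the positions within DNAJB1 were chosen after the values were seen. Promoters came from RefSeq (GRCh38.p14), so no other gene was placed on the peaks; all 5 members matched by symbol. Python 3.11.15, numpy 2.4.6, pandas 2.3.3 and matplotlib 3.10.9 were used; overlap, joining, motif search and the permutation test were tested on simulated data.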

Additional observations from a re-analysis of the deposited data

Results flagged for a closer look

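At DNAJA1 the score ratio of heat shock to untreated lay on opposite sides of 1 in the lines. The log2 ratio was −1.05 and −0.44 in KO replicates 1 and 2, and 0.11 and 0.26 in WT replicates 1 and 2. Over all joined regions called in both lists, 82.9% and 49.4% scored lower after heat shock in KO replicates 1 and 2. In WT replicates 1 and 2 the shares were 28.6% and 43.2%. The log2 ratio of rank percent of DNAJA1 was 1.13 and 0.92 in KO and −0.75 and −1.0 in WT. This ratio moves with the lengths of the lists, which held 79 to 3257 peaks. The ranks of DNAJA1 themselves were 20 untreated against 24 and 43 after heat shock in KO. In WT they were 23 against 39 and 19, on either side of the untreated rank. Whether KO and WT differ in this was not tested. Each line has 1 untreated library, so each ratio rests on it.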

How the results depend on the processing

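Windows of 1000 or 25000 bp and a peak centre required in the window left each of the 4 differences in gene number as reported. With the 79 highest-scoring peaks of each list, KO minus WT was 0.5 after heat shock and 1 untreated, and heat shock minus untreated in KO was −0.5. At a score of at least 100 the last was −0.5 as well, because DNAJB1 fell out of KO heat shock replicate 1, and KO minus WT after heat shock was 2.5. Leaving out each heat shock replicate in turn left the differences in gene number at 3 (KO minus WT), 0 (WT) and 0 (KO). The difference in rank percent of DNAJA1, KO minus WT, then ranged from −15.9 to −13.1 percentage points. The difference in its log2 width, WT minus KO, ranged from 0.83 to 1.4. With the replicate number as a replicate block, the differences stayed at 3 genes, −14.5 percentage points and 1.12, and the exact permutation p was 0.5, the smallest that 2 pairs can give. Nothing in the labels says that equal numbers pair the libraries. Depth is unknown and the lists of KO and WT differ in peak width, which limits every statement on a missing peak.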

Other observations

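A peak centred 46053.5 to 46085 bp from the DNAJB1 start, on the downstream side, was present in all 3 KO lists and in no WT list. Its scores were 222 in untreated KO (chr19:14582968-14583279, rank 208), 63.2 in KO heat shock replicate 1 (chr19:14583033-14583197, rank 611) and 119 in replicate 2 (chr19:14582989-14583304, rank 410). It scored highest in untreated KO. Its gene was not assigned. Near DNAJA4, KO heat shock replicate 2 alone had a further peak of 139 bp just outside the window (chr15:78549915-78550053, score 73.4, centre 6516 bp upstream of the start).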
